A study of Mus musculus with 2 samples.

Results

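The genes described here are 10 members of the epidermal growth factor (EGF) signalling family, read in 2 RNA libraries of sorted mouse mammary cells. They are the ligand genes Areg, Ereg, Hbegf, Tgfa, Btc and Nrg1, the receptor genes Egfr, Erbb2 and Erbb3, and Errfi1, which encodes an inhibitor of the receptors. They were taken by name, 10 of 54438 genes in the deposited tables, with earlier results of these data known. Their 41 listed transcripts were summed per gene and also read one by one. Both libraries were labelled as mammary gland basal cells from wild type C57BL/6 mice 8 weeks old, sorted by flow cytometry and lysed directly for Smart-seq, a full-length cDNA method for small cell numbers. The series set out to profile basal cells with and without Pd-l1, a surface protein that dampens T cells. The labels call the libraries W1 and W2 and do not say which of them is Pd-l1 positive. Neither was therefore placed in a class, and the values below set 2 single libraries side by side. There is 1 library of each, so no test was made, and a difference between them is not a difference between Pd-l1 classes. How many mice and cells went into each is not stated in the labels.

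EGF family ligands are mostly made as membrane-anchored precursors and released by proteases of the ADAM class. They bind receptors that pair up and signal through the MAP kinase and PI3 kinase routes. Erbb2 has no known soluble ligand and acts as a partner, and Erbb3 has little kinase activity of its own. In the mammary gland, amphiregulin, the product of Areg, is known as the EGF family ligand that ductal outgrowth at puberty depends on.

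Levels are TPM, a transcript's share of the library corrected for its length, as deposited. Reads per transcript were recovered from the steps between the deposited FPKM values, and the size of a step gave a depth of 3055840 counted reads in W1 and 3800029 in W2. Intervals are exact 95% intervals on these reads and cover counting error only. The log2 ratio is that of TPM + 1, W1 over W2. Genes reaching 1 TPM in either library were compared, and a ratio past 2-fold was a call. Of 12587 genes so compared, 34.7% were called higher in W1 and 32.9% higher in W2, together 67.6%. Calls were thus frequent on both sides.

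In W1 the cell type markers went against the label of basal cells, and W2 held some luminal and fibroblast markers beside basal ones. Of 10 markers of basal epithelium, 8 of the 9 compared were higher in W2 and 0 in W1, with summed levels of 149 TPM in W1 and 36824 TPM in W2. Of the 149 TPM in W1, 140 came from Itga6, an integrin that is not specific to this layer, while Krt5 and Cnn1 had 0 reads there. All 8 compared of 10 endothelial markers were higher in W1, with 4888 TPM there and 4.78 TPM in W2, where 9 of the 10 had 0 reads. Luminal markers summed to 284 TPM in W1 and 4886 TPM in W2 (1 of 8 compared higher in W1, 6 in W2). The W2 sum came mostly from Krt8 (1691 TPM), Epcam (1511 TPM), Krt18 (995 TPM) and Cd24a (673 TPM). Krt19, Pgr and Esr1 stood at 14.1, 1.38 and 0.362 TPM in W2. Prlr and Elf5 had 0 reads in both libraries, and Kit had 67 reads in W1 and 0 in W2. Fibroblast markers summed to 3.19 and 206 TPM in W1 and W2, with 6 of 6 compared higher in W2. Lymphatic endothelial markers summed to 13139 and 8078 TPM in W1 and W2, mostly from Ccl21a (10177 and 7543 TPM), with 3 of 6 higher in W1 and 1 in W2. The 3 were Lyve1, Prox1 and Flt4, with 21085, 1801 and 768 reads in W1 and 0 in W2. Reln was higher in W2, with 2 and 158 reads in W1 and W2. Ccl21a and Pdpn lay within 2-fold. Leukocyte markers summed to 88.7 and 7.17 TPM in W1 and W2, with 2 of 3 compared higher in W1, and of 5 pericyte markers only Rgs5 had reads (59.2 and 51.3 TPM). The part of cell makeup in the differences below was not tested, and in bulk RNA fewer cells of a type and less RNA per cell cannot be told apart.

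A single short transcript weighed on the scale of W1. Gm23935 held 27.7% of TPM in W1 and 4.13% in W2, from 1.57% and 0.189% of the reads. Over the 6804 genes that reached 1 TPM in each library, the median log2 TPM ratio was -0.35, and it was 0.02 when TPM was rescaled without Gm23935. Values of Hbegf, Areg and Tgfa are therefore also given on that scale.

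All 9 members with reads were lower in W1 than in W2, also under each alternative scaling, length term and choice of transcript tried. A change of pseudocount cannot alter the direction of a ratio, and a choice of transcript cannot where a gene has reads on a single one. Btc had 0 reads in both. Of the 10 members, 8 reached 1 TPM in at least 1 library, and Btc and Erbb3 did not. Among those 8, 4 were called higher in W2 and 0 in W1, beside 32.9% and 34.7% of all genes. The 4 were Areg, Ereg, Nrg1 and Egfr. The other 4, Hbegf, Tgfa, Erbb2 and Errfi1, lay within 2-fold. The median log2 ratio of the 8 was -1.36, against -0.07 over all 12587 genes. Of the 8, Ereg, Nrg1, Egfr and Erbb2 reached 1 TPM in W2 alone. They were thus compared only through the library where they were higher, and the count toward W2 and the median rest in part on them.

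**Figure D1:**
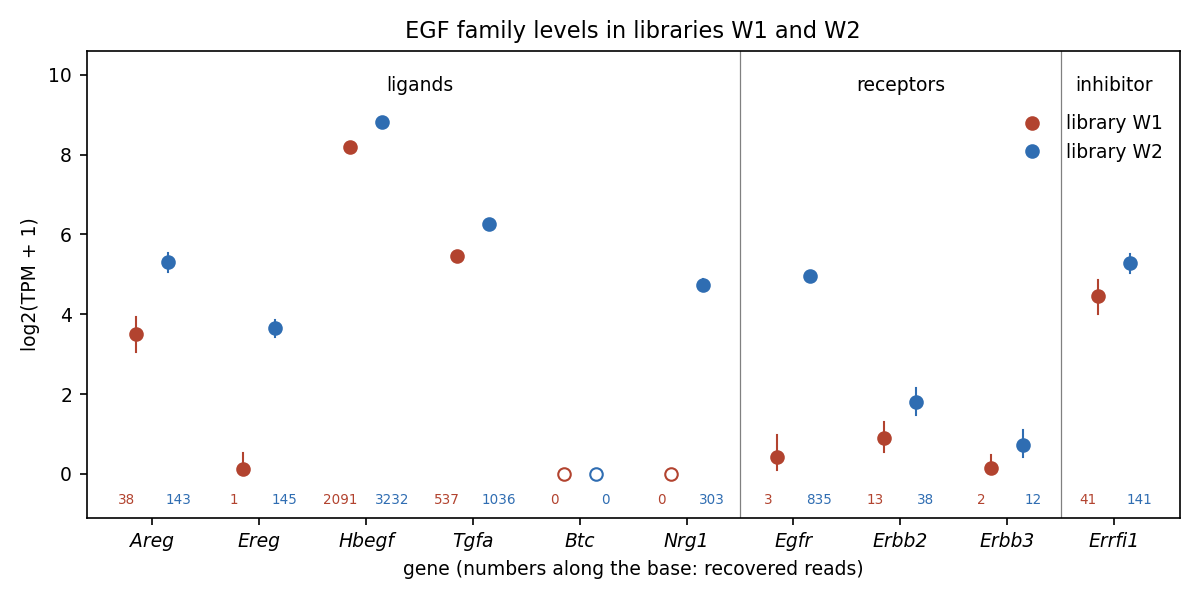
Level of each EGF family gene as log2(TPM + 1) in W1 (red) and W2 (blue), with exact 95% intervals on reads as vertical lines and recovered reads along the base. Open circles mark 0 reads. Each gene with reads sits lower in W1, and the gap is widest for Nrg1, Egfr and Ereg.

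**Figure D2:**
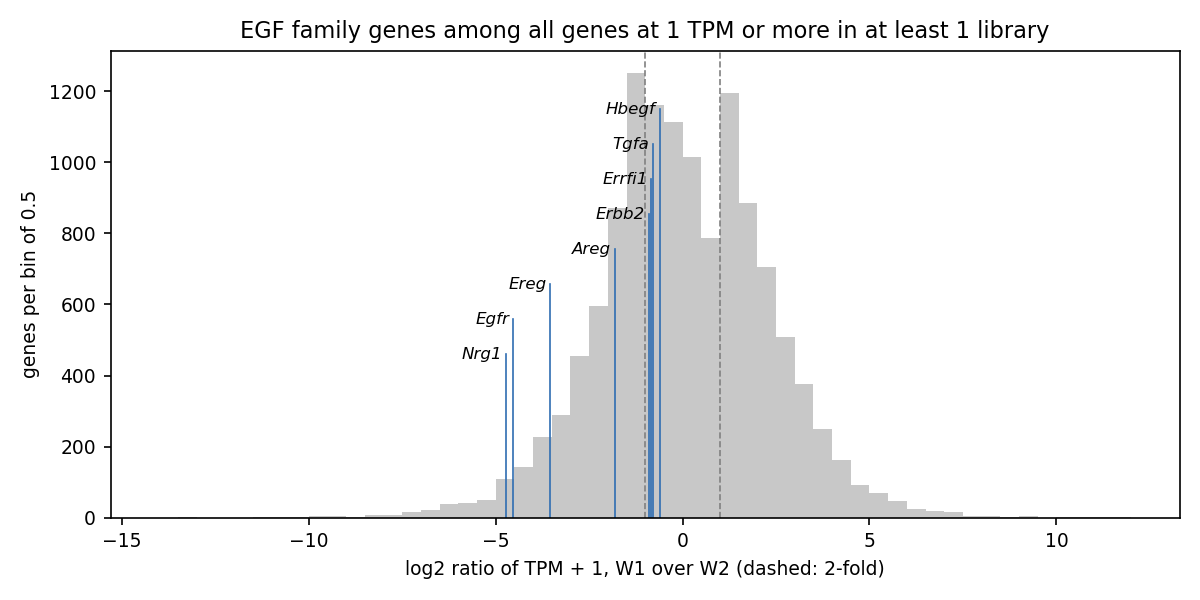
Histogram of the log2 ratio of TPM + 1, W1 over W2, for 12587 genes, with the 8 EGF family genes that reached 1 TPM drawn as blue lines. Areg, Ereg, Egfr and Nrg1 lie beyond the dashed 2-fold line on the side of W2, and the other 4 lie between the dashed lines.

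The sequences at which isoforms part are shown first for Tgfa and Egfr, because their isoforms differed in reads between the libraries. A 50-mer, a stretch of 50 bases, is called a transcript's own when it is in no other listed transcript. How reads common to several transcripts were counted is not stated, so the number of own 50-mers is given beside isoform values. Tgfa-203, a transcript annotated as non-coding, and the coding Tgfa-201 share an end of exon 1 (chr6:86195516-86195545, plus strand, GRCm38) and then part. In the lines below the shared bases are in lower case, and the first bases of the next exon (from 86208091 in Tgfa-203 and from 86229431 in Tgfa-201) are in capitals.
Tgfa-203: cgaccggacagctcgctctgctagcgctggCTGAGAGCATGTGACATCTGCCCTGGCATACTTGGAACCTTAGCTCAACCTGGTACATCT
Tgfa-201: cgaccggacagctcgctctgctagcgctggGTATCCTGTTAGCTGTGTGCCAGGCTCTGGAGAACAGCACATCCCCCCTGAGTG
Egfr-202 and Egfr-201 share their sequence up to the same point of a common exon (chr11:16887156-16887185, plus strand). Beyond it Egfr-202 runs on into what is an intron of Egfr-201 and meets a stop codon after the 40 capital bases, while Egfr-201 continues in the exon that starts at 16889913.
Egfr-202: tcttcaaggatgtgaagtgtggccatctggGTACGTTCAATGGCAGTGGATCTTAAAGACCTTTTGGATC
Egfr-201: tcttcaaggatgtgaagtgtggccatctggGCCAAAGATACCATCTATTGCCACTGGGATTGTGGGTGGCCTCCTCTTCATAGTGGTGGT

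Hbegf, which encodes heparin-binding EGF-like growth factor, had the most reads of the members in both libraries. The gene (ENSMUSG00000024486.6, chromosome 18, 36504927 to 36515805, minus strand) stood at 291 TPM (278 to 303) in W1 and 446 TPM (431 to 462) in W2, from 2091 and 3232 reads. The level was 1.54-fold higher in W2 (1.45 to 1.62), with a log2 ratio of -0.62. Rescaled without Gm23935 the gene stood at 402 and 465 TPM in W1 and W2, and in RPM, counted reads scaled to equal depth, at 684 and 851. On those scales the ratio toward W2 was 1.16-fold and 1.24-fold. Hbegf was thus read in both libraries at levels within 2-fold, also in the library with few basal keratin reads.

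Areg and Ereg, the genes of amphiregulin and epiregulin, are neighbours in a ligand cluster on chromosome 5 that also holds Epgn and Btc. Areg (ENSMUSG00000029378.5, 91139599 to 91148432, plus strand) had 38 reads in W1 and 143 in W2. Its level was 10.3 TPM (7.30 to 14.2) and 38.6 TPM (32.5 to 45.4), a 3.74-fold difference toward W2 (2.60 to 5.50) and a log2 ratio of -1.81. It was 2.82-fold without Gm23935. Areg was detected in both libraries, and the intervals of its level do not overlap.

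Ereg (ENSMUSG00000029377.5, 91074622 to 91093646, plus strand) had 1 read in W1 and 145 in W2. The levels were 0.08 and 11.5 TPM, and the log2 ratio was -3.53. The ratio toward W2 was 144-fold, with an interval of 25.4 to 5723 because W1 had a single read. Areg lies 45.95 kb from Ereg, and both are on the plus strand. Epgn, the gene of epigen, lies 39.4 kb on the other side of Ereg and had 0 and 4 reads in W1 and W2. Btc, the gene of betacellulin, lies 209 kb beyond Areg on the minus strand and had 0 reads in both. Its 4 listed transcripts hold 2003 own 50-mers between them, yet 0 reads does not show that the gene was silent. Within the cluster, reads lay mainly at Areg and Ereg, and W1 had few at either.

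The bases just before the start of Areg are shown because of what they share with those of Errfi1. Of the 10 members, 6 matched RefSeq promoter windows (7 windows, GRCm38.p6), and the 250 bases before each start were searched on both strands. The motifs were the cyclic AMP response element TGACGTCA, the AP-1 motif TGANTCA, the GC box GGGCGG and the TATA box TATAAA. They overlapped each other in neither window below, except that a pair of GC boxes in Errfi1 share bases. Matches on either strand are in capitals.
Areg, chr5:91139349-91139598, plus strand: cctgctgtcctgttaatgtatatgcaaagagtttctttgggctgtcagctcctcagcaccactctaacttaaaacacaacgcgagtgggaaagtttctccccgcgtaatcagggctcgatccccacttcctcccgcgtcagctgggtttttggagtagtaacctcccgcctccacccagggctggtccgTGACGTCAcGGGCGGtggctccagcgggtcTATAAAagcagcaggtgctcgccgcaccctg
Errfi1, chr4:150854820-150855069, plus strand: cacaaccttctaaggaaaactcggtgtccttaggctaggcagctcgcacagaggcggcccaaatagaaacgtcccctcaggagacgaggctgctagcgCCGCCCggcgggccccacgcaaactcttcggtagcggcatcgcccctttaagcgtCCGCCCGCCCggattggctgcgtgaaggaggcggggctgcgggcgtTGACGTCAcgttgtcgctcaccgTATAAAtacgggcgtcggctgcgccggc
In Areg the response element begins 61 bases before the start and the TATA box 31 bases before it. In Errfi1 they begin 51 and 28 bases before the start. Of 32817 promoter windows of that length, 1.55% held the response element, 12.4% the TATA box and 0.119% both. The pair was picked because these windows held it, so its share does not measure how unusual the match is. A GC box was in 32.7% of windows and an AP-1 match in 6.75%, and the AP-1 motif was in 0 of the 7 windows of the members. The other Errfi1 window and those of Egfr, Erbb2, Tgfa and Btc held neither the response element nor the TATA box. A match of letters is a description of the sequence and no measurement of binding.

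Tgfa, which encodes transforming growth factor alpha, differed in isoform use. The gene (ENSMUSG00000029999.14, chromosome 6, 86195223 to 86275719, plus strand) stood at 43.1 TPM (39.6 to 46.9) in W1 and 75.0 TPM (70.5 to 79.7) in W2, 1.74-fold higher in W2 (1.57 to 1.93). Rescaled without Gm23935 the gene stood at 59.7 and 78.3 TPM, a 1.31-fold difference. The coding Tgfa-201 had 489 reads in W1 and 1036 in W2, and stood at 35.6 and 75.0 TPM. Its TPM difference was 2.10-fold (1.89 to 2.35), and in RPM per 1000 own 50-mers it stood at 45.4 in W1 and 77.3 in W2. Tgfa-203, whose second exon lies in the first intron of Tgfa-201, had 48 reads in W1 and 0 in W2. With a floor of 3 reads in W2, its level was 16.1-fold higher in W1. Tgfa-203 made up 8.94% of the gene's reads in W1 (6.66 to 11.7, exact Clopper-Pearson interval), and 0% in W2, with an upper bound of 0.355%. It was the only member transcript with more reads in W1 than in W2. It has 1824 own 50-mers, of 2070 in all. Whether the counted reads were spliced cannot be read from the tables.

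Nrg1, the gene of neuregulin 1, a ligand of Erbb3, was read in W2 alone. The gene (ENSMUSG00000062991.7, chromosome 8, 31814551 to 32884029, minus strand) had 0 reads in W1 and 303 in W2, where it stood at 25.6 TPM (22.8 to 28.7). With a floor of 3 reads in W1, which is 0.256 TPM, the level in W2 was 100.3-fold higher. Nrg1 has 18 listed transcripts, of which 4 had reads. Nrg1-203, a coding transcript (31814551 to 32009109), held 256 of the reads, 84.5% (79.9 to 88.4). All of its own 50-mers lie in its last exon, so they do not tell which of its other exons were in use. Nrg1-204, annotated as a retained intron (31837205 to 31918384), held 45, and Nrg1-213 and Nrg1-215 had 1 read each. On their own 50-mers the 2 leading transcripts had like densities in W2, at 98.8 reads per 1000 own 50-mers for Nrg1-203 and 96.8 for Nrg1-204. Of the 14 transcripts without reads, 5 had no 50-mer of their own. Nrg1-202, Nrg1-209, Nrg1-210, Nrg1-211, Nrg1-212 and Nrg1-214 had between 6 and 49. The 84.5% on Nrg1-203 thus does not show that these forms were unused. Gm26578, a gene on the other strand, had 0 and 61 reads in W1 and W2, shares 100 bases with exons of Nrg1-203 and none with its own stretch.

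**Figure D3:**
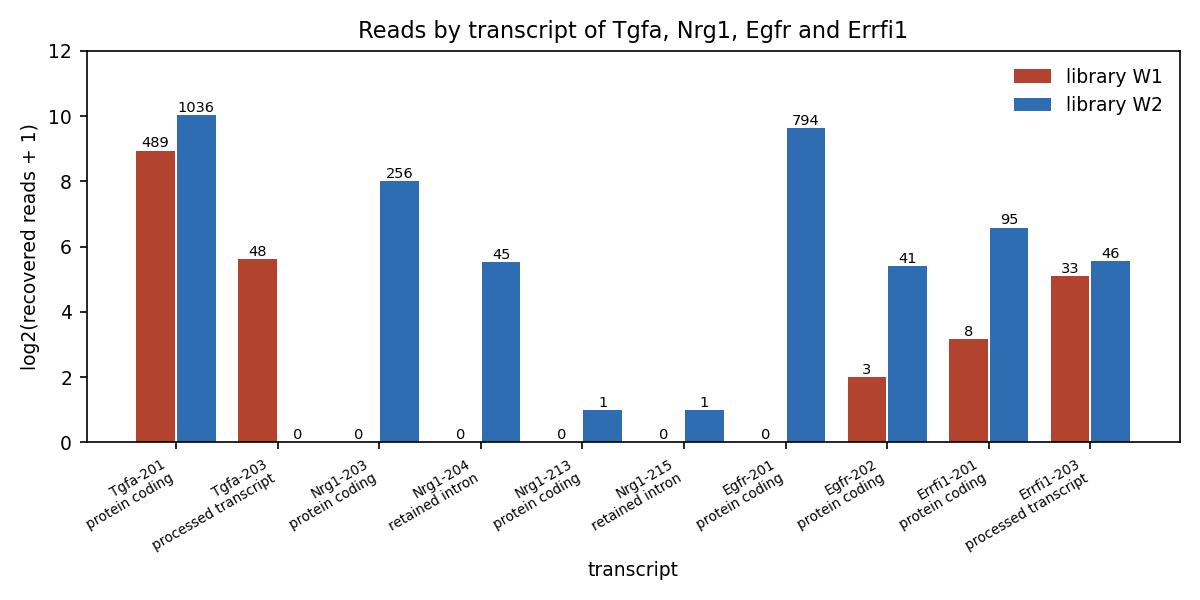
Recovered reads on each transcript of Tgfa, Nrg1, Egfr and Errfi1 that had any, as log2(reads + 1), in W1 (red) and W2 (blue), with the read number on each bar. Tgfa-203 has reads in W1 alone (48), and Egfr-201 (794) and Nrg1-203 (256) in W2 alone.

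Egfr, the receptor of Areg, Ereg, Hbegf, Tgfa and Btc products, was close to absent from the reads of W1. The gene (ENSMUSG00000020122.16, chromosome 11, 16752203 to 16918158, plus strand) had 3 reads in W1 and 835 in W2. The levels were 0.336 TPM (0.0693 to 0.982) and 30.1 TPM (28.1 to 32.2), an 89.5-fold difference toward W2 (30.5 to 435) and a log2 ratio of -4.54. Hbegf and Tgfa thus had 2091 and 537 reads in W1, where the gene of their receptor had 3.

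The Egfr reads were counted on a pair of transcripts annotated as coding. Egfr-201, with a coding sequence of 3630 bases, had 0 reads in W1 and 794 in W2, a 263-fold difference with a floor of 3 reads in W1. Egfr-202 has a coding sequence of 1965 bases that ends ahead of the part encoding the membrane-spanning and kinase regions. It had 3 reads in W1 and 41 in W2, a 13.6-fold difference (4.34 to 68.6). In W2, Egfr-202 held 4.91% of the gene's reads (3.55 to 6.60). Counted per own sequence its share was larger, at 55.0 reads per 1000 own 50-mers against 106 for Egfr-201. That scale places the counted reads on 745 own 50-mers of Egfr-202 and 7485 of Egfr-201. The share of the shorter form therefore depends on how length is counted. Of the 745 own 50-mers of Egfr-202, 737 run into an intron of Egfr-201. Whether the reads of Egfr-202, in either library, came from that short form or from unspliced RNA of the gene cannot be told from these values.

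**Figure D4:**
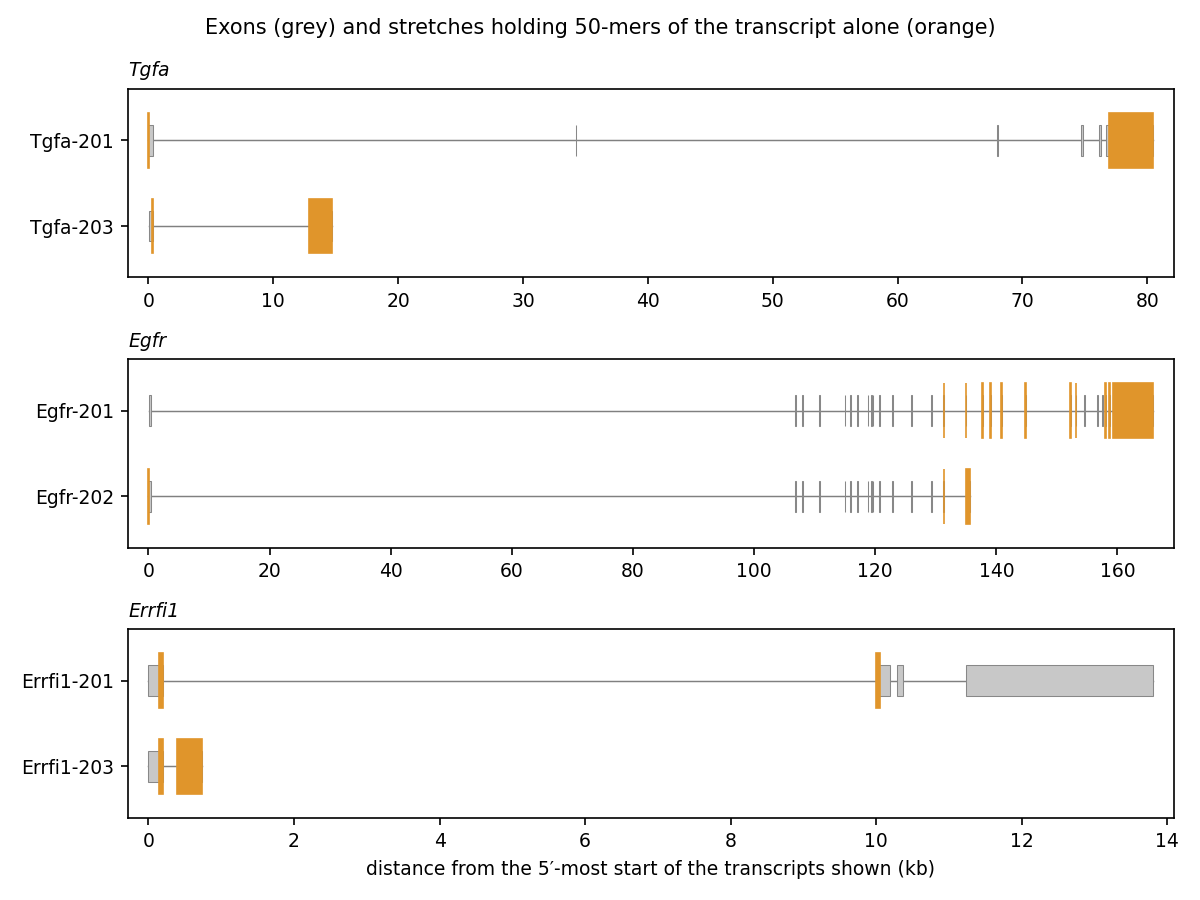
Exons (grey) of the transcripts of Tgfa, Egfr and Errfi1 that had reads, against distance from the 5′-most start in kb, with stretches that hold a transcript's own 50-mers in orange. Egfr-201 has 7485 own 50-mers, mostly at its 3′ end, and Errfi1-201 has 48, in 1 stretch across a splice junction.

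Erbb2 and Erbb3, the partner receptor genes, had few reads. Erbb2 (ENSMUSG00000062312.5, chromosome 11, 98412470 to 98437716, plus strand) had 13 reads in W1 and 38 in W2. It stood at 0.856 TPM (0.456 to 1.46) and 2.49 TPM (1.76 to 3.41), a 2.90-fold difference toward W2 (1.51 to 5.94). Its log2 ratio of TPM + 1 was -0.91, just within the 2-fold rule, and it passed that rule in 4 of 9 settings, among them a pseudocount of 0.1 (-1.44). Erbb2-201 has 709 own 50-mers of 4963. In RPM per 1000 own 50-mers it stood at 6.00 in W1 and 14.1 in W2. The neighbouring Mien1 on the other strand shares 9 bases with Erbb2-201.

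Erbb3 (ENSMUSG00000018166.8, chromosome 10, 128567523 to 128589652, minus strand) did not reach 1 TPM in either library. It had 2 reads in W1 and 12 in W2, at 0.11 and 0.654 TPM, and the ratio toward W2 was 5.95-fold (1.32 to 54.7). Erbb3 has 1 listed transcript, and all of its 5967 50-mers are its own. On the same scale as Erbb2, by own 50-mers and depth, it stood at 0.110 in W1 and 0.529 in W2. The level of Erbb2 was above that of Erbb3 in both libraries on that scale.

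Errfi1 encodes Mig6, a feedback inhibitor that binds the kinase part of the receptors. The gene (ENSMUSG00000028967.10, chromosome 4, 150853919 to 150868892, plus strand) had 41 reads in W1 and 141 in W2, and stood at 20.8 TPM (14.9 to 28.2) and 37.9 TPM (31.9 to 44.6). The TPM difference was 1.82-fold toward W2 (1.28 to 2.64), a log2 ratio of -0.83. Being within 2-fold depended on the scale, since the gene passed 2-fold in 4 of 9 settings, with log2 ratios between -0.44 (without Gm23935) and -2.68 (per own 50-mers). In RPM it stood at 13.4 in W1 and 37.1 in W2, a 2.77-fold difference. The isoforms differed unequally. Coding Errfi1-201 had 8 reads in W1 and 95 in W2, an 11.8-fold difference (5.75 to 28.1). The short non-coding Errfi1-203 had 33 and 46 reads, a 1.38-fold difference whose interval (0.866 to 2.24) includes 1. Errfi1-203 is 546 bases long and Errfi1-201 is 3043, so the short form dominated the gene's TPM. Errfi1-201 has 48 own 50-mers of 2994, the rest being shared with other listed transcripts, and the level of the gene is uncertain for that reason.

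The 4 members with 1 listed transcript, Areg, Ereg, Hbegf and Erbb3, can be set in order by level without the question of isoforms. In W1 the order by TPM was Hbegf (291), Areg (10.3), Erbb3 (0.11) and Ereg (0.08), and the intervals of Erbb3 and Ereg overlap. In W2 it was Hbegf (446), Areg (38.6), Ereg (11.5) and Erbb3 (0.654), with no overlap between neighbours.

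Other genes of the pathway, from lists chosen by role with earlier results of these data known, did not lie on 1 side. Each list count below stands beside 34.7% of all compared genes called higher in W1 and 32.9% in W2, and each median beside -0.07. Of the 6 further family genes, Nrg4, another neuregulin, was the only one to reach 1 TPM, at 5.04 TPM in W1 and 13.0 TPM in W2 (2.58-fold, 1.69 to 4.004). Nrg2 had 3 reads in each library. Egf, Nrg3 and the receptor gene Erbb4 were listed at 0 in both, which does not show that they were silent.

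Of 9 genes that process or bind the ligands, 7 were compared, and 3 were higher in W1 and 3 in W2. Sdc4, a heparan sulphate proteoglycan, stood at 51.7 TPM in W1 and 2502 TPM in W2 (48.4-fold, 43.8 to 53.7). Cd9, a tetraspanin known to associate with the Hbegf precursor, stood at 125 and 2311 TPM (18.5-fold toward W2, 16.9 to 20.4), and the proteoglycan gene Sdc1 at 2.93 and 11.7 TPM. On the other side were the protease gene Adam10 (44.8 TPM in W1 and 11.1 TPM in W2, 4.02-fold, 3.37 to 4.82) and Timp3, an inhibitor of such proteases (647 and 244 TPM, 2.66-fold). Nrd1 lay within 2-fold. Adam17, the main releasing enzyme of several of these ligands, is named after its values were seen, and had 34 reads in W1 and 1 in W2.

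Negative regulators of the pathway were compared for 16 of 20 genes, of which 8 were higher in W1 and 4 in W2 (median log2 ratio 0.57). Among the 6 with the most reads, Spry4 was higher in W1 (35.5 and 8.22 TPM in W1 and W2) and Spry2 and Socs5 were higher in W2 (123 and 305 TPM, and 28.2 and 87.0 TPM). Socs3 (410 and 512 TPM), Dusp5 (121 and 151 TPM) and Spred1 (50.6 and 59.0 TPM) lay within 2-fold. Spry2 and Spry4, both Sprouty genes that restrain the MAP kinase route, thus differed in opposite directions.

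Adaptors and kinases were compared for 15 of 22 genes, with 5 higher in W1, 1 higher in W2 and 9 within 2-fold (median log2 ratio 0.70). Among those with the most reads, Map2k1 (78.7 TPM in W1 and 100.2 TPM in W2), Sos1 (12.1 and 21.8 TPM), Akt1 (61.6 and 33.0 TPM) and Braf (8.16 and 15.2 TPM) lay within 2-fold. A further 5 of the 22, Grb2, Gab1, Ptpn11, Hras and Mapk3, were listed at 0 in both, which does not show that they were silent.

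Of 14 target genes of MAP kinase signalling, 9 were compared, with 4 higher in W1 and 3 in W2 (median log2 ratio 0.63). Fosl1, an AP-1 subunit, stood at 41.8 TPM in W1 and 1038 TPM in W2 (24.85-fold, 21.8 to 28.4). Phlda1 (88.6 and 282 TPM) and Ier3 (2568 and 5201 TPM, 2.03-fold) were also higher in W2. Ccnd1, cyclin D1, was higher in W1 (253 and 14.6 TPM, 17.4-fold, 14.9 to 20.5), as was the transcription factor gene Ets1 (223 and 39.4 TPM, 5.64-fold). Fos was the target with the most reads and lay within 2-fold at 2547 and 4295 TPM. None of these 5 lists had all of its compared genes on the side of W2 except the list of further family genes, which rests on Nrg4 alone.

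**Figure D5:**
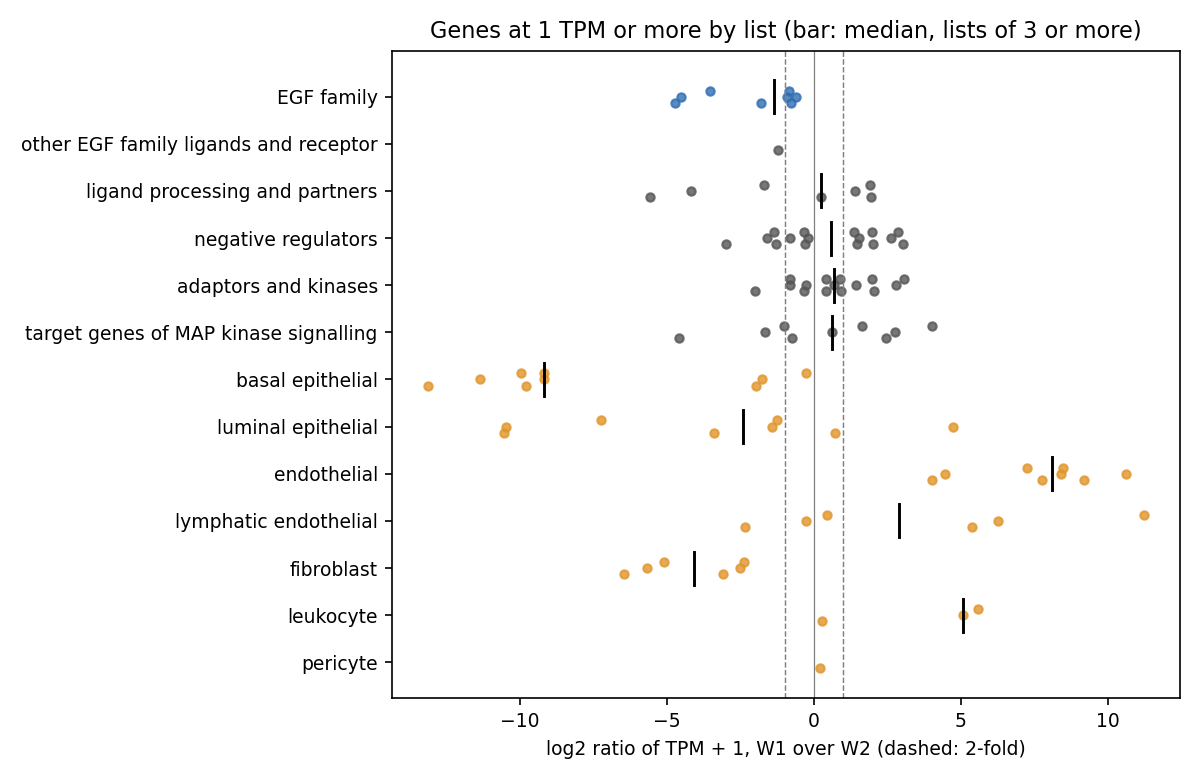
Log2 ratio of TPM + 1, W1 over W2, for genes at 1 TPM or more in each list, with the EGF family in blue, pathway lists in grey and cell type markers in orange, and the median as a black bar. The 8 EGF family genes lie left of 0, pathway lists spread to both sides, and basal (median -9.20) and endothelial markers (8.09) lie at opposite ends.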

How the data were processed

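Data of 2 libraries were used as deposited by the authors: TPM and FPKM for 137767 mouse transcripts. Bowtie 0.12.2 and the builds GRCm38 and mm8 appear in the submitters' processing notes, with no step attached. The labels' protocols state a stranded kit, and do not name the counting tool, its annotation or its use of strand. The deposited TPM are the deposited FPKM times 1.01 in W1 and 1.25 in W2. Identifiers were matched to GENCODE M21 on GRCm38 (137654 matched, 113 did not), which may not be the authors' annotation, and TPM were summed per gene.

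FPKM times transcript length gave whole multiples of a constant in each library, which was taken as 1 read. Within 0.1 read, 98.5% and 98.1% of transcripts above 0 came out whole in W1 and W2. No molecular identifiers are named for this amplified cDNA, so intervals (exact Clopper-Pearson for ratios and shares, exact Poisson for levels, 95%) cover counting error only. The ratio interval is scaled to TPM. A library with 0 reads was given a floor of 3 reads, and a fold at that floor leaves out counting error.

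Neither library had a replicate or a class, so no p-value is given. The members and lists were chosen with earlier results of these data known. Named genes are all 10 members, the genes of lists of 6 or fewer, and the 6 with the most reads in the other pathway lists, of which some are not reported here. Promoters are RefSeq sequences, GRCm38.p6. Alternatives changed the pseudocount, filter, scaling, length term and transcript used. Tables were handled with pandas 2.3.3, intervals came from scipy 1.17.1 and figures from matplotlib 3.10.9, under Python 3.11.15.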

Additional observations from a re-analysis of the deposited data

How the results depend on the processing

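No paired analysis was possible because the labels place neither library in a group. Under 8 alternatives, 0 of 72 recomputed log2 ratios of the 9 members with reads changed sign, and 33 moved beyond their counting interval. Those under another pseudocount could not change sign. Taking 1 transcript per gene left Areg, Ereg, Hbegf, Erbb2 and Erbb3 as reported, which was fixed because each had reads on 1 transcript alone. The filters bear on counts of genes alone. Areg, Ereg, Nrg1 and Egfr stayed past 2-fold toward W2 in all 9 settings, with log2 ratios from -1.43 to -2.08, -1.70 to -6.01, -2.62 to -8.01 and -2.72 to -6.80. Hbegf stayed within 2-fold (-0.21 to -0.88). Tgfa passed 2-fold in 2 of 9 settings, and its ratio was smaller without Gm23935 (-0.38), scaled by the median ratio (-0.44) and per own 50-mers (-0.51). It passed 2-fold without mitochondrial, ribosomal protein and ribosomal RNA genes (-1.05) and with Tgfa-201 alone (-1.05). Errfi1 passed it without those gene classes (-1.097), in RPM (-1.40), with Errfi1-201 alone (-2.59) and per own 50-mers (-2.68). Members called higher in W2 numbered 4 of 8 compared as reported, 5 of 8 with a pseudocount of 0.1, 6 of 8 with 1 transcript per gene, 6 of 8 per own 50-mers, 7 of 8 without those gene classes and 7 of 9 in RPM, where Erbb3 was also compared. In these last 2 settings 4895 of 13010 and 3771 of 13066 genes in all were called toward W2. With a pseudocount of 0.1 it was 4439 of 12587 genes, and with 1 transcript per gene 4273 of 12436. Per own 50-mers no count over all genes was made, so the 6 of 8 there has no such share beside it. In every setting 0 members were called higher in W1. Over all genes, the calls toward W1 and W2 numbered 4370 and 4142 as reported, and 2112 and 2509 with a pseudocount of 5. With at least 20 reads required, 2664 genes were called toward W1, fewer genes being compared. Rescaling without Gm23935 and counting per own 50-mers were chosen after seeing the data. Without Gm23935, all genes split into 5266 toward W1 and 3550 toward W2. Depth limits Ereg, Egfr and Erbb3 in W1, which rest on 1, 3 and 2 reads.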
